A study of Homo sapiens with 12 samples.

Results

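The comparison set 3 libraries of cisplatin-resistant SKOV-3 cells carrying a KDM5A and KDM5B double knockout against 3 libraries of parental SKOV-3 cells without the knockout. These were 6 of the 12 libraries in all. SKOV-3 is an established human ovarian adenocarcinoma line, and its resistant derivative is called SKOV-3 CDDP. The groups were taken from the sample titles. The resistant knockout cells were labelled cisplatin-resistant with both genes knocked out, the parental cells wild type without drug resistance, so the groups differ both in resistance history and in genotype. A further group, resistant cells without the knockout (3 libraries), was placed beside them to show what each gene did before the knockout. The labels do not name the guides or the number of clones behind the knockout, the drug dose used to select the resistant line. They also do not say whether replicate libraries stem from independent cultures, so p-values reflect the variation among these libraries alone, part of which may be technical.

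Cisplatin is a platinum drug that crosslinks DNA bases, and cells that survive it for long can differ in uptake, repair, cell death and cell state. KDM5A and KDM5B remove methyl groups from lysine 4 of histone H3, a mark of active promoters, and KDM5 enzymes are known for a role in drug-tolerant states of cancer cells. The series title ties KDM5 proteins to cisplatin resistance. The question here is how far the resistant knockout cells stand from the cells at the start of the line.

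Levels are given in CPM, the read count scaled to a common library size and corrected for composition. Each library held 15987117 to 19706754 counts in the 2 main groups. The resistant knockout libraries detected 27982 to 29656 genes with at least a read and the parental libraries 23026 to 25790. Mitochondrial transcripts took 5.93% to 8.99% of counts in resistant knockout libraries and 5.34% to 7.75% in parental libraries. Of 9 epithelial ovarian carcinoma markers, 7 reached 1 CPM on average in resistant knockout cells and 8 in parental cells. Their summed level was higher in resistant knockout libraries, at 1450 to 1950 CPM, than in parental libraries, at 615 to 1210 CPM. Resistant libraries had 1980 to 2670 CPM. Markers of other cells were read as well. Endothelial markers stayed below 1 CPM in both groups (0 of 7), and EMCN had no read in either. A single immune marker of 9 passed 1 CPM in each group, the lysosomal gene CD68, while CD3D and MS4A1 had no read in either. The immune markers summed to 15.2 to 22.3 CPM in resistant knockout libraries and to 31.9 to 95.6 CPM in parental libraries. Of 9 fibroblast markers, 6 reached 1 CPM in resistant knockout cells and 1 in parental cells. Their summed level ran from 2530 to 4470 CPM in resistant knockout libraries, from 350 to 960 CPM in resistant libraries and from 1.97 to 8.80 CPM in parental libraries. In resistant knockout and resistant libraries most of this sum was the single gene COL1A1. It had 4080, 4370 and 2500 CPM in resistant knockout libraries and 939, 729 and 345 CPM in resistant libraries. Smooth muscle markers summed to 177 to 903 CPM in resistant knockout libraries and to 6.47 to 10.7 CPM in parental libraries. Of 6 mesothelial markers, 5 reached 1 CPM in resistant knockout cells and 3 in parental cells, with sums of 66.8 to 77.1 CPM in resistant knockout libraries and 36.1 to 76.4 CPM in parental libraries. Of 6 neural and glial markers, 2 reached 1 CPM in resistant knockout cells and 1 in parental cells, with sums of 2.96 to 21 CPM in resistant knockout libraries and 3.52 to 6.27 CPM in parental libraries. In bulk RNA a change in the share of cells with a programme and a change in RNA per cell cannot be told apart, and the part of other cells in the results below was not tested.

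The targeted genes were checked first. KDM5A (ENSG00000073614, GRCh38 chromosome 12, 280129 to 389454) had 17.6, 14.8 and 12.0 CPM in resistant knockout libraries, against 30.9, 41.5 and 39.4 CPM in parental libraries. Every knockout library lay below every parental library, and the transcript remained at 39.7% of the parental mean. The log2 fold change was -1.33 ± 0.25 (SE), with an adjusted p of 0.00213 in edgeR's quasi-likelihood test with Benjamini-Hochberg adjustment over all 17947 genes tested. A two-sided exact permutation test on log2 CPM gave p = 0.1, the smallest that 3 against 3 can give. Resistant libraries without the knockout had 39.9, 39.0 and 33.4 CPM of KDM5A. Against these the log2 fold change in resistant knockout cells was -1.34, which edgeR did not call (adjusted p 0.0524). KDM5B (ENSG00000117139, chromosome 1, 202724495 to 202809470) had 84.8, 56.9 and 28.3 CPM in resistant knockout libraries, against 50.9, 79.7 and 43.0 CPM in parental libraries. These ranges overlapped, and the log2 fold change of -0.03 had a 95% interval of -1.09 to 1.03 (edgeR adjusted p 0.970, exact permutation p = 1.0). The sign of the KDM5B difference turned when resistant knockout library 3 or parental library 2 was left out. KDM5C, the X-linked paralog that was not targeted, had 210, 196 and 188 CPM in resistant knockout libraries and 169, 228 and 171 CPM in parental libraries, which overlapped. A transcript that persists says nothing of the protein, which can be lost to a frameshift. SKOV-3 is known to lack CDKN2A, and this served as a check on line identity. CDKN2A had 3 reads over the resistant knockout libraries and 0 over the parental libraries, and CDKN2B had 0 in both.

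Between resistant knockout and parental cells, 4744 of 17947 tested genes differed (26.4%, edgeR's quasi-likelihood test, adjusted p under 0.05). Of these, 2656 (14.8%) were higher and 2088 (11.6%) lower in resistant knockout cells. At least 2-fold changes were seen in 4166 genes, at least 8-fold in 1492 and at least 32-fold in 579. For 3283 genes (18.3%) the 95% interval of the change lay within 2-fold in both directions, so these can be called close to the parental level. The other 9920 genes (55.3%) could be placed in neither class. At an unadjusted p under 0.05, 6965 genes differed. The count of lower genes fell to 1221 without resistant knockout library 2, to 1259 without parental library 2 and to 1387 without resistant knockout library 1. The total was 3140 without parental library 2. Among protein-coding genes 2078 of 13922 were higher and 1768 lower, whereas among noncoding genes 449 of 2847 were higher and 211 lower. The libraries of the groups did not overlap in 7660 genes (42.7%). Scaling by library size alone moved the median log2 fold change of all genes to 0.14, against 0.03 here, so changes smaller than that shift depend on the scaling.

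Set beside each other, resistant cells without the knockout differed from parental cells in 5030 genes (28%), of which 2728 (15.2%) were higher and 2302 (12.8%) lower. In resistant knockout cells 38 genes (0.212%) were called higher than in resistant cells and 0 were called lower. The median absolute log2 fold change over all genes was 0.68 for resistant knockout against parental cells, 0.70 for resistant against parental cells and 0.31 for resistant knockout against resistant cells. These comparisons share libraries and are given side by side only.

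A distance over the whole transcriptome was taken as the root mean square difference in log2 CPM over all tested genes, averaged over the 3 parental libraries. Resistant knockout libraries stood at 1.67, 1.68 and 1.61 (mean 1.65 ± 0.041 SD, n = 3), and resistant libraries at 1.78, 1.66 and 1.64 (1.69 ± 0.076). Parental libraries stood 0.849, 0.859 and 0.896 from each other. The means of the resistant knockout and resistant libraries differed by -0.041, less than the spread among resistant libraries (two-sided exact permutation p = 0.6, smallest possible 0.1). Its sign turned without resistant library 1, which gave 0.0152. Pairs of resistant knockout and resistant libraries stood 0.895 apart on average, against 0.807 between pairs of resistant knockout libraries and the 0.805 between pairs of resistant libraries.

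**Figure D1:**
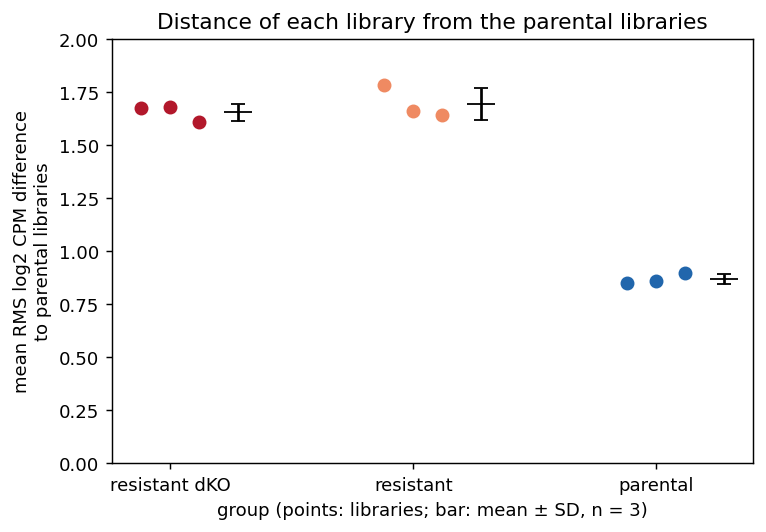
Mean root mean square log2 CPM difference of each library to the parental libraries (vertical axis) for resistant knockout, resistant and parental libraries. Points are libraries and bars the mean ± SD (n = 3): the resistant knockout libraries sit at 1.61 to 1.68 and the resistant libraries at 1.64 to 1.78, both well above the parental libraries at 0.849 to 0.896.

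Of the 12 protein-coding genes with the largest increases, 9 had no read in any parental library. A ranking by fold change favours such genes, so nothing is read from this number. Since the proximal promoter is where a gene is switched on or held silent, the 250 bases before the start site of a pair of these genes are shown, read from RefSeq on GRCh38.p14 and written 5′ to 3′ on the gene's strand, with CpG dinucleotides in capitals. LDOC1 lies at chrX:141177130-141177379 on the minus strand and CYB5A at chr18:74291964-74292213 on the minus strand.
LDOC1: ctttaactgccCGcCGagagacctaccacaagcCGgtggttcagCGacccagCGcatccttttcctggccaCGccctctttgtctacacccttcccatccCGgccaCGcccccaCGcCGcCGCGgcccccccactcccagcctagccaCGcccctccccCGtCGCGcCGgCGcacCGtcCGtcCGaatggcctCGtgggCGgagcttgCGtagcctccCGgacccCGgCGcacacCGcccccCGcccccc
CYB5A: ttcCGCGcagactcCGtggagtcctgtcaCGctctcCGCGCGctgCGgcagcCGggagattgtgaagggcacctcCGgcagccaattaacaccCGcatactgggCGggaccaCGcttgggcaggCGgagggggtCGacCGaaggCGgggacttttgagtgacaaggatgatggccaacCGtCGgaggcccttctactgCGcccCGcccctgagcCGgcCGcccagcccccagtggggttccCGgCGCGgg
The window of LDOC1 holds 29 CpG and that of CYB5A 26, whereas the median over 27305 promoter windows of this length was 11. At least 20 CpG stood in 32.1% of all windows. RefSeq windows were matched for 8 of the 12 genes with the largest increases, with a median of 22.5 CpG (1 to 31), and 5 of these 8 had at least 20. For the 12 largest decreases 5 windows were matched, with a median of 4 CpG (4 to 6). Methylation was not measured, and these counts describe letters only.

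LDOC1 (ENSG00000182195, chromosome X, 141175745 to 141177125), a small retrotransposon-derived regulator, had 76.3, 57.0 and 106 CPM in resistant knockout libraries and no read in parental libraries. Against a floor of 3 counts over the parental libraries this was at least 1358-fold higher. CYB5A (chromosome 18, 74250847 to 74292016), the membrane cytochrome b5, had 63.8, 56.9 and 58.9 CPM in resistant knockout libraries and no read in parental libraries, at least 1034-fold higher. In resistant libraries the levels were 92.3 ± 6.85 CPM for LDOC1 and 38.2 ± 12.7 CPM for CYB5A (SD, n = 3). TENM2, a teneurin of cell contacts, had 232, 348 and 266 CPM in resistant knockout libraries and a single read over the parental libraries, a ratio of 14480 with an exact counting interval of 2600 to 572000. ALDH1A1, the cytosolic retinal dehydrogenase often used as a marker of stem-like ovarian cancer cells, had 198, 130 and 96.4 CPM in resistant knockout libraries and 2 reads over the parental libraries, a ratio of 3756 (1040 to 31000). Such bounds and intervals cover counting error only.

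GALNT6, which starts O-linked glycan chains, had 28.6, 31.5 and 20.4 CPM in resistant knockout libraries (at least 466.8-fold higher), and BMP7, a bone morphogenetic protein, 17.1, 17.8 and 15.6 CPM (at least 290.7-fold). Both were at 0 reads in parental libraries. GLUL, glutamine synthetase, had 26.8, 15.6 and 19.1 CPM in resistant knockout libraries (at least 358.7-fold higher than the parental libraries at 0 reads). CXCL12, a chemokine of stromal cells, had 35.5, 20.3 and 3.09 CPM in resistant knockout libraries and no read in parental libraries. It varied more among the resistant knockout libraries, with library 3 the lowest of the group. KRTAP2-3, a hair keratin-associated protein gene, went the other way, with 1.34, 3.54 and 56.0 CPM, library 3 being the highest. DCAF12L1 had 15.5, 15.6 and 26.8 CPM in resistant knockout libraries and no parental read. COL1A1 is described with the matrix genes. Across these 12 increases the adjusted p in edgeR lay between 1.89e-06 (TENM2) and 0.00809 (KRTAP2-3), and none of these calls was lost when a library was left out.

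**Figure D2:**
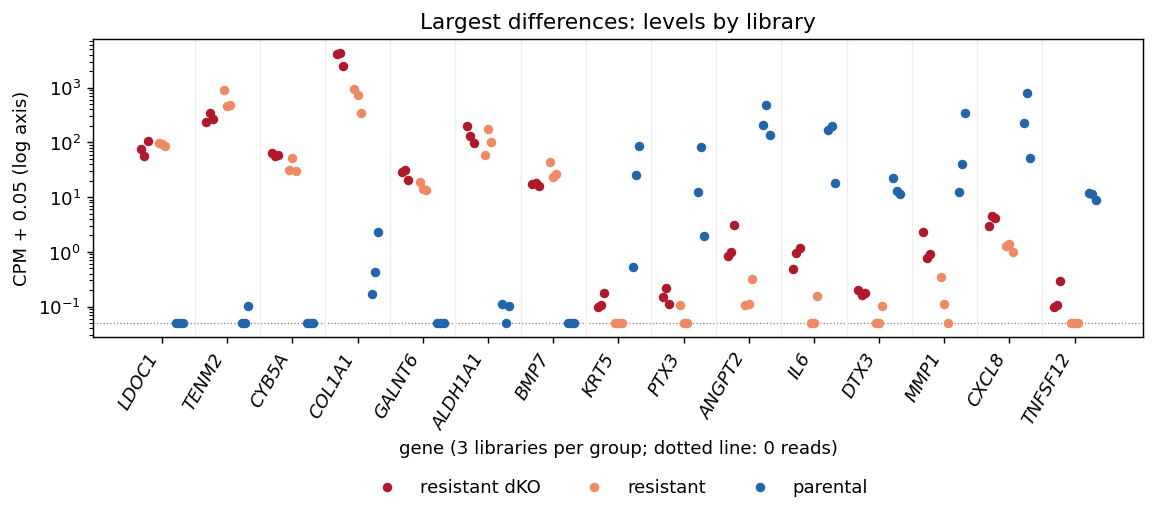
Level of genes with the largest differences in each library, as CPM + 0.05 on a log axis, for resistant knockout, resistant and parental cells. The dotted line marks 0 reads: LDOC1, CYB5A, GALNT6 and BMP7 lie on it in all 3 parental libraries, and IL6 and CXCL8 lie lower in every resistant knockout library than in every parental one.

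Among the 12 largest decreases were genes of inflammation, vessel growth and the squamous epithelium. ANGPT2, an angiopoietin that destabilises vessels, had 0.792, 0.941 and 3.09 CPM in resistant knockout libraries, against 207, 473 and 137 CPM in parental libraries (log2 fold change -7.42 ± 0.85, edgeR adjusted p 8.43e-05). MMP1, the interstitial collagenase, had 2.23, 0.720 and 0.865 CPM in resistant knockout libraries, against 12.4, 40.1 and 341 CPM in parental libraries (-6.67 ± 1.48, adjusted p 0.00562). DTX3, of the Deltex family of ubiquitin ligases, had 0.148, 0.111 and 0.124 CPM in resistant knockout libraries, against 22, 13 and 11.5 CPM in parental libraries (-6.84 ± 0.54). In all 3 genes the groups were far apart, though the parental libraries differed widely from each other for MMP1. TNFSF12, the cytokine TWEAK, had 0.0495, 0.0554 and 0.247 CPM in resistant knockout libraries, against 11.8, 11.3 and 8.75 CPM in parental libraries. TRIM29 had 3 reads over the resistant knockout libraries and 261 over the parental libraries, a parental to knockout ratio of 91.69 (31.0 to 447). KRT5, the basal keratin, had 0.0495, 0.0554 and 0.124 CPM in resistant knockout libraries, against 0.478, 25.4 and 86.9 CPM in parental libraries. Its call (edgeR adjusted p 0.0127) was lost without resistant knockout library 1 (0.0513) or library 2 (0.0557). Limma-voom did not call KRT5 (adjusted p 0.127). KLHDC7B fell as well, with an adjusted p of 0.00845 in edgeR and 0.0824 in limma-voom. PTX3, IL6 and CXCL8 are described with the cytokines.

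Of the 38 genes called higher in resistant knockout than in resistant cells, 21 were called lower than in parental cells, 12 higher and 5 neither. Over all genes 11.6% were lower and 14.8% higher. Both comparisons use the resistant knockout libraries, so nothing is read from these counts. The 8 genes with the largest differences between resistant knockout and resistant cells were then placed against parental cells. This ranking favours genes with no read in resistant libraries, so those low levels follow in part from the choice. In 4 of the 8 the resistant libraries had no read or next to none and the resistant knockout libraries a small part of the parental level. PDPN, the membrane glycoprotein podoplanin, had 1.78, 1.94 and 4.57 CPM in resistant knockout libraries, no read in resistant libraries, and 16.3, 15.6 and 28.6 CPM in parental libraries. MFAP5, a microfibril protein, had 3.37, 5.37 and 6.73 CPM in resistant knockout libraries, 0, 0.122 and 0 CPM in resistant libraries, and 45.6, 41.2 and 89.5 CPM in parental libraries. SH2D4A, an SH2 domain adaptor, had 0.544, 0.941 and 1.61 CPM in resistant knockout libraries, no read in resistant libraries, and 32.9, 50.7 and 39.0 CPM in parental libraries. MARVELD1 had 0.346, 0.498 and 0.926 CPM in resistant knockout libraries, no read in resistant libraries, and 16.1, 15.9 and 30.9 CPM in parental libraries. The mean in resistant knockout cells was 13.7% of the parental mean for PDPN, 8.77% for MFAP5, 2.82% for MARVELD1 and 2.52% for SH2D4A. All 4 were still lower than in parental cells, with edgeR adjusted p of 0.00307 for PDPN, 0.000480 for MFAP5, 8.60e-05 for MARVELD1 and 2.49e-05 for SH2D4A.

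The noncoding RNA LINC02323 could be placed neither as changed nor as within 2-fold of the parental level. It had 1.14, 0.665 and 0.865 CPM in resistant knockout libraries, no read in resistant libraries, and 1.14, 0.897 and 0.414 CPM in parental libraries. These resistant knockout and parental ranges overlapped. Its log2 fold change against parental cells was 0.13 ± 0.54, and the sign turned without resistant knockout library 1 or parental library 3. The remaining 3 were near 0 both in resistant and in parental cells. SPANXB1, a sperm protein gene on chromosome X, had 2.57, 2.94 and 5.93 CPM in resistant knockout libraries and no parental read, at least 63.57-fold higher. DSCAM, a neural adhesion molecule, had 2.33, 1.44 and 2.29 CPM in resistant knockout libraries (at least 34.79-fold higher than parental cells at 0 reads), and the pseudogene ANKRD20A9P 1.68, 1.61 and 1.79 CPM (at least 29.10-fold). ANKRD20A9P and SPANXB1 have near-identical copies, so reads could be split between them.

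Extracellular matrix genes rose more often than they fell. Of 30 tested genes for fibrillar collagens and matrix, 15 were higher and 5 lower in resistant knockout cells (66.7% changed, against 26.4% of all genes), with a median log2 fold change of 2.03. COL1A1 (ENSG00000108821, chromosome 17, 50183289 to 50201632), a chain of type I collagen, had 4080, 4370 and 2500 CPM in resistant knockout libraries, against 0.119, 0.384 and 2.28 CPM in parental libraries (log2 fold change 11.89 ± 1.35, edgeR adjusted p 7.82e-05). Resistant libraries averaged 671 ± 301 CPM (SD, n = 3), so the knockout libraries were the highest of the 3 groups, although edgeR did not call resistant knockout against resistant cells (log2 fold change 2.44, adjusted p 0.471). SPARC, a matrix glycoprotein, had 1560, 1780 and 1270 CPM in resistant knockout libraries, against 0, 0.320 and 2.43 CPM in parental libraries. POSTN, the matrix protein periostin, had 42.9, 88.8 and 32.7 CPM in resistant knockout libraries and 1 read over the parental libraries, a ratio of 2848 (511 to 113000). COL3A1, the type III collagen, had 80.1, 37.5 and 9.88 CPM in resistant knockout libraries and 1 read over the parental libraries (ratio 2330, 418 to 92100), and COL6A3 14.3, 25.7 and 29.5 CPM with 1 parental read (ratio 1167, 209 to 46100). All these groups stood apart, while COL3A1 varied by several fold among resistant knockout libraries. COL1A1, COL1A2 and COL3A1 are also 3 of the 9 fibroblast markers given above, so the 2 measures share genes. The median of the list was 1.57 for resistant against parental cells. Leaving out resistant knockout library 2 or 3 or parental library 2 cut the lower count to 3, and the higher count was then at least 13.

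Of 16 tested transcription factors and markers of the epithelial to mesenchymal transition, 3 were higher and 6 lower (56.2% changed, against 26.4% of all genes). The list holds epithelial as well as mesenchymal members, so these counts give no direction of the transition. SNAI1, a repressor of E-cadherin, had 14.5, 9.80 and 11.9 CPM in resistant knockout libraries, against 0.836, 0.192 and 0.725 CPM in parental libraries (log2 fold change 4.34 ± 0.83, edgeR adjusted p 0.00240). TCF4, a helix-loop-helix factor, had 22.6, 17.3 and 16.8 CPM in resistant knockout libraries, against 0.179, 0.0640 and 0.104 CPM in parental libraries (7.26 ± 0.51, adjusted p 3.05e-06). The epithelial splicing factor ESRP2 fell to 0.742, 1.33 and 1.48 CPM in resistant knockout libraries, against 11.7, 13.7 and 15.1 CPM in parental libraries (-3.51 ± 0.43, adjusted p 0.000148). Its relative ESRP1 was lower too (-4.51 ± 1.31, adjusted p 0.0225). Unlike SNAI1 and TCF4, the mesenchymal factor PRRX1 was lower in resistant knockout cells (-2.64 ± 0.83, adjusted p 0.0325). Of the 6 fits that left out a library, 4 lost the call of ESRP1 and 3 that of PRRX1. The count of lower genes was 1 without resistant knockout library 2 or library 3 and 3 without parental library 2, and the higher count was 5 without resistant knockout library 3.

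Epithelial junction and keratin genes were split likewise, with 7 of 31 higher and 8 lower (48.4% changed, against 26.4% of all genes). KRT81, a hair keratin, had 86.4, 136 and 157 CPM in resistant knockout libraries, 2.28, 4.63 and 2.21 CPM in resistant libraries, and 0.239, 0.512 and 0.311 CPM in parental libraries. Its rise over parental cells was 8.46 ± 0.51 on the log2 scale (edgeR adjusted p 1.59e-06), and edgeR also called it higher than in resistant cells (5.38, adjusted p 0.000194). CLDN3, a tight junction claudin, had 0.247, 0 and 0 CPM in resistant knockout libraries, against 6.63, 5.57 and 9.99 CPM in parental libraries (-6.27 ± 0.87, adjusted p 0.000329). EHF, an epithelial ETS factor, had 0.544, 0.166 and 0.247 CPM in resistant knockout libraries, against 3.82, 8.90 and 10.9 CPM in parental libraries. Without resistant knockout library 1 or 2, or parental library 2, the lower count was 5. Of 19 genes for the ovarian carcinoma lineage and its antigens, 4 were higher and 7 lower (57.9% changed, against 26.4% of all genes). The lower count was 4 without resistant knockout library 2. KLK7, a kallikrein protease, had 6.09, 5.87 and 0.803 CPM in resistant knockout libraries and no parental read (at least 76.54-fold higher). CLDN16 had 26.0, 27.1 and 28.9 CPM in resistant knockout libraries, against 1.02, 1.41 and 0.880 CPM in parental libraries (4.63 ± 0.70). LCN2, a siderophore-binding lipocalin, had 14.4, 7.81 and 2.22 CPM in resistant knockout libraries, against 529, 224 and 59.6 CPM in parental libraries (edgeR adjusted p 0.0116, lost without resistant knockout library 2 at 0.0518).

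**Figure D3:**
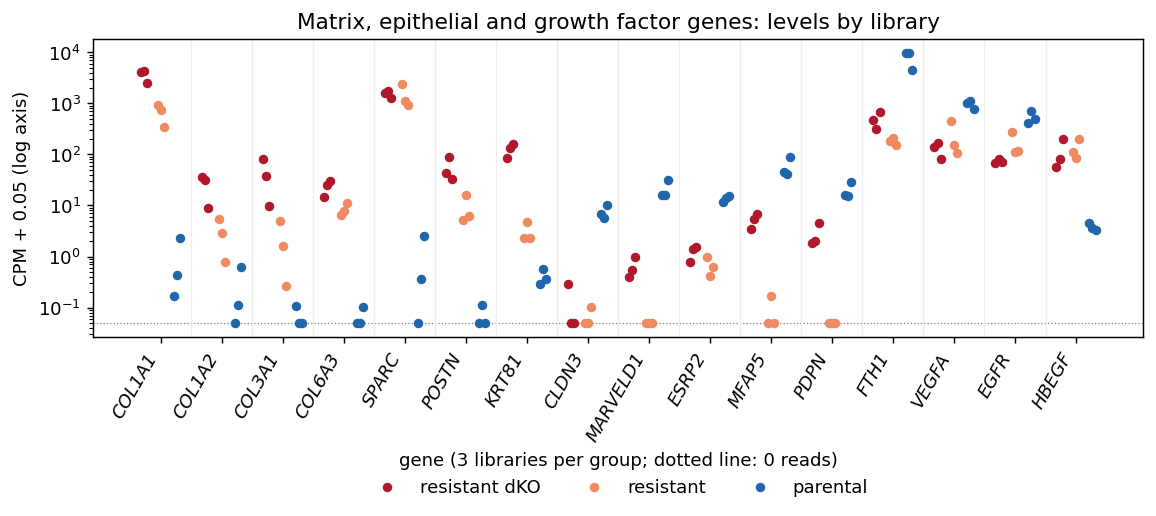
Level of selected genes of the described groups in each library, as CPM + 0.05 on a log axis, for resistant knockout, resistant and parental cells. COL1A1 lies at 2500 to 4370 CPM in resistant knockout libraries, far above parental libraries, and FTH1 at 318 to 666 CPM in them, below the 4420 to 9830 CPM of parental libraries.

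Most of the inflammatory genes fell. Of 25 tested NF-kB targets and cytokines, 16 were lower and 2 higher in resistant knockout cells (72.0% changed, against 26.4% of all genes). The median log2 fold change was -2.80, and it was -3.31 for resistant against parental cells. NF-kB is the family of transcription factors that switches on cytokines and their own inhibitors after inflammatory signals, through short sites close to the gene start. Promoter windows of 250 bases are shown for the cytokine genes IL6 (chr7:22726950-22727199, plus strand) and CXCL8 (chr4:73740319-73740568, plus strand), RefSeq on GRCh38.p14, with the match to the letters GGANTTTCC in capitals.
IL6: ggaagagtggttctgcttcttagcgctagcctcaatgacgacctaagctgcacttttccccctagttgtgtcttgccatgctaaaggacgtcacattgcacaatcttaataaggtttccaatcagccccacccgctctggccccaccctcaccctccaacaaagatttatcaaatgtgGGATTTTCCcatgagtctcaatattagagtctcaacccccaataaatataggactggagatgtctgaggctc
CXCL8: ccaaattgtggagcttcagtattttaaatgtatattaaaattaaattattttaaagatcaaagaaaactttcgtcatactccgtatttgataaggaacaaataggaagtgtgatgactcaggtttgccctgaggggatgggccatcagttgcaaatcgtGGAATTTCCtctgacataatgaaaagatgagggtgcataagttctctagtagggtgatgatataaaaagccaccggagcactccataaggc
The match lies 72 to 64 bases before the start in IL6 and 91 to 83 bases before it in CXCL8. Searched on both strands, the letters were found in 1.47% of all 27305 windows and in 11 of the 22 windows matched for this list. Those were the windows of CXCL1, CXCL2, CXCL3, CXCL5, CXCL8, ICAM1, IL6, NFKB1, NFKBIA, REL and TNFAIP3. The list was drawn up from NF-kB targets and cytokines, so more matches than over all windows can follow from that choice alone. A match describes the letters and says nothing of binding or of why these genes were lower.

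IL6 (ENSG00000136244, chromosome 7, 22725884 to 22732002), the fever and acute phase cytokine, had 0.445, 0.886 and 1.11 CPM in resistant knockout libraries, against 171, 201 and 18.2 CPM in parental libraries (log2 fold change -7.32 ± 1.27, edgeR adjusted p 0.00135). CXCL8, the neutrophil attractant, had 2.92, 4.54 and 4.08 CPM in resistant knockout libraries, against 229, 791 and 52.8 CPM in parental libraries (-6.54 ± 1.37, adjusted p 0.00407). IL1A, interleukin 1 alpha, had 2.97, 2.94 and 2.53 CPM in resistant knockout libraries, 0.0584, 0.244 and 0.0526 CPM in resistant libraries, and 176, 203 and 16.8 CPM in parental libraries (-5.54 ± 1.05). In each of these genes parental library 3 was the lowest of its group yet stood above all resistant knockout libraries. TNF, the tumour necrosis factor gene, had 0.247, 0.332 and 0.432 CPM in resistant knockout libraries, against 14.3, 11.3 and 4.92 CPM in parental libraries (-4.90 ± 0.75, adjusted p 0.000628). PTX3, a soluble pattern recognition protein, had 0.0990, 0.166 and 0.0618 CPM in resistant knockout libraries, against 12.5, 83.6 and 1.92 CPM in parental libraries (adjusted p 0.00952 in edgeR and 0.131 in limma-voom). Leaving out single libraries gave 12 to 17 lower genes, while the 2 higher calls fell to 0 without resistant knockout library 2 or parental library 1 and to 1 without any of the other 4.

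Interferon-stimulated genes showed no common direction. Of 38 tested, 7 were higher and 5 lower (31.6% changed), against 26.4% of all genes, with a median of 0.04. BST2, the antiviral protein tetherin, had 8.51, 8.09 and 5.93 CPM in resistant knockout libraries, against 95.8, 92.3 and 247 CPM in parental libraries (-4.27 ± 0.66, edgeR adjusted p 0.000663). USP18, which removes ISG15 from proteins, had 6.39, 6.26 and 6.73 CPM in resistant knockout libraries, against 1.61, 0.640 and 1.81 CPM in parental libraries (2.24 ± 0.48, adjusted p 0.00463). RSAD2, the antiviral enzyme viperin, was called lower (adjusted p 0.0350) on the strength of parental library 1, since parental levels were 38.3, 0 and 0 CPM and resistant knockout levels 0.346, 0.0554 and 0.0618 CPM. Without that library its log2 fold change was 4.55 (adjusted p 0.0982). Its call was also lost without resistant knockout library 1 (0.0740), library 2 (0.121) or library 3 (0.0905). The higher count of the list was 3 without resistant knockout library 1 or parental library 2, and the lower count 3 without resistant knockout library 1 or parental library 1 and 2 without resistant knockout library 2.

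MHC class I presentation had 6 higher and 1 lower of 20 tested (35.0% changed, against 26.4% of all genes, median 0.92). One of the 6 was CD274, the checkpoint ligand PD-L1, which presents no peptide. It had 8.41, 25.9 and 35.8 CPM in resistant knockout libraries, against 0.956, 0.256 and 0.207 CPM in parental libraries (5.62 ± 0.78, edgeR adjusted p 0.000336). HLA-C, a class I heavy chain, had 1480, 1330 and 605 CPM in resistant knockout libraries, against 366, 409 and 464 CPM in parental libraries. Its call (adjusted p 0.0387) was lost in 5 of 6 fits that left out a library: 0.129 without resistant knockout library 1, 0.109 without library 2, and 0.107, 0.105 and 0.0666 without parental library 1, 2 or 3. HLA-F, a further class I chain, lost its call in 5 of the 6 fits without a library, and NLRC5, the class I transactivator, and PSMB9, an immunoproteasome subunit, lost theirs in 4, whereas that of CD274 held in all 6. Reads of the near-identical class I genes could also be split. The higher count was 1 without resistant knockout library 1 or 2 or parental library 2, and 3 without parental library 1 or 3. The single lower call was lost without any library other than parental library 1.

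Signals of the BMP, activin and TGF-beta family were raised more often than lowered, with 12 of 39 higher and 3 lower (38.5% changed, median 0.13). Over all genes 14.8% were higher and 11.6% lower. Among ligands, INHBA, the activin A subunit, had 62.2, 83.8 and 44.2 CPM in resistant knockout libraries, against 1.73, 0.256 and 0.777 CPM in parental libraries (log2 fold change 6.09 ± 0.57, edgeR adjusted p 2.01e-05). TGFB2, a transforming growth factor, had 39.5, 65.1 and 72.0 CPM in resistant knockout libraries, against 0.717, 1.99 and 1.66 CPM in parental libraries (5.33 ± 0.46, adjusted p 1.15e-05). In resistant cells without the knockout, the log2 fold changes over parental cells were 6.41 for INHBA and 6.12 for TGFB2. YAP and TEAD targets were split, with 5 of 26 higher and 8 lower (50% changed, against 26.4% of all genes). CCN2, a matricellular protein, had 110, 285 and 1210 CPM in resistant knockout libraries, against 2.63, 9.41 and 9.06 CPM in parental libraries (6.24 ± 1.09, adjusted p 0.00143). ANKRD1, a muscle ankyrin repeat protein, had 37.0, 96.6 and 496 CPM in resistant knockout libraries, against 0.836, 5.38 and 0.104 CPM in parental libraries. For CCN2 and ANKRD1 resistant knockout library 3 was the highest of its group by several fold. The lower count of YAP and TEAD targets was 4 without resistant knockout library 1 or 2 or parental library 2, and 5 without parental library 1.

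Receptors and ligands of the ERBB family fell more often than they rose, with 5 of 12 lower and 3 higher. This was 66.7% changed, against 26.4% of all genes, with a median of -1.68. EGFR (ENSG00000146648, chromosome 7, 55019021 to 55211628), the epidermal growth factor receptor, had 69.2, 82.4 and 69.6 CPM in resistant knockout libraries, 278, 111 and 114 CPM in resistant libraries, and 418, 694 and 497 CPM in parental libraries (-2.86 ± 0.45, edgeR adjusted p 0.000712). EREG, an EGFR ligand, had 0.148, 0.388 and 0.679 CPM in resistant knockout libraries, against 9.62, 32.1 and 4.97 CPM in parental libraries (-5.27 ± 0.91). The ligand HBEGF had 56.0, 81.1 and 200 CPM in resistant knockout libraries, against 4.42, 3.59 and 3.26 CPM in parental libraries (4.90 ± 0.50, adjusted p 3.48e-05). ERBB2, which SKOV-3 is known to carry in excess, had 811, 1020 and 949 CPM in resistant knockout libraries, against 1840, 2630 and 10100 CPM in parental libraries. The groups did not overlap, but the call (adjusted p 0.0266) was lost without parental library 3 (0.134) or resistant knockout library 1 (0.0834), 2 (0.0736) or 3 (0.0614). The lower count of the list was 3 without resistant knockout library 2. Of 32 WNT ligands, receptors and antagonists, 9 were higher and 6 lower (46.9% changed, against 26.4% of all genes). ROR2, a WNT5A receptor, had 10.9, 9.75 and 4.39 CPM in resistant knockout libraries, against 0.119, 0 and 0.155 CPM in parental libraries (6.35 ± 0.81). FZD8, a Frizzled receptor, had 0.841, 1.22 and 1.30 CPM in resistant knockout libraries, against 10.5, 19.2 and 15.8 CPM in parental libraries (-3.76 ± 0.45), and WNT7A 7.82, 18.2 and 23.8 CPM against 87.5, 143 and 347 CPM. The higher WNT count was 5 without resistant knockout library 1 or 2 or parental library 2, and the lower count 3 without any one of the resistant knockout libraries.

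Stress programmes differed in their parts. Of 28 genes of the unfolded protein and integrated stress responses, 11 were lower and 4 higher (53.6% changed, against 26.4% of all genes). The median was -0.66, and it was -0.11 for resistant against parental cells. TRIB3, a pseudokinase induced by ATF4, had 20.2, 18.4 and 46.4 CPM in resistant knockout libraries, against 587, 943 and 121 CPM in parental libraries (-4.28 ± 0.95, edgeR adjusted p 0.00558). DDIT3, the stress factor CHOP, had 14.0, 12.4 and 13.6 CPM in resistant knockout libraries, against 177, 168 and 29.4 CPM in parental libraries (-3.22 ± 0.77, adjusted p 0.00875). SESN2, a sestrin that restrains mTORC1, had 18.1, 15.3 and 18.7 CPM in resistant knockout libraries, against 129, 217 and 66.4 CPM in parental libraries. In all 3 the resistant knockout libraries lay below every parental library. The lower count was 6 without resistant knockout library 1 and 7 without parental library 2. Of 33 NRF2 targets with glutathione and ferritin genes, 9 were higher and 5 lower (42.4% changed, against 26.4% of all genes). FTH1, the ferritin heavy chain, had 481, 318 and 666 CPM in resistant knockout libraries, 187, 206 and 151 CPM in resistant libraries, and 9520, 9830 and 4420 CPM in parental libraries (-4.02 ± 0.45, adjusted p 6.75e-05). Ferritin has many processed copies, so its reads could be split. SLC7A11, the cystine importer, had 26.8, 33.2 and 14.1 CPM in resistant knockout libraries, against 112, 231 and 196 CPM in parental libraries (-2.86 ± 0.51). HMOX1, haem oxygenase, had 50.6, 30.2 and 53.9 CPM in resistant knockout libraries, against 17.1, 11.1 and 6.78 CPM in parental libraries (1.95 ± 0.42). The lower count of this list was 3 without resistant knockout library 1 or parental library 1 and 2 without resistant knockout library 2.

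Metallothioneins are small proteins that bind metal ions, platinum among them. Of 11 genes for them and their regulator, 3 passed the filter on low counts, and 2 were called higher and 1 lower. Over all genes 26.4% were called, but the other members of this list were not tested, so nothing is read from this count. MT2A had 373, 819 and 1980 CPM in resistant knockout libraries, against 177, 106 and 130 CPM in parental libraries (log2 fold change 2.94 ± 0.60, edgeR adjusted p 0.00365), and MT1X 56.8, 68.3 and 118 CPM against 33.1, 20.7 and 9.84 CPM (1.93 ± 0.50). The metal-responsive factor MTF1 was lower, with 14.4, 12.5 and 18.8 CPM in resistant knockout libraries and 31.6, 45 and 28.5 CPM in parental libraries (adjusted p 0.0116, lost without resistant knockout library 2 at 0.0546 or parental library 2 at 0.0603). Cholesterol synthesis and uptake had 1 higher and 4 lower gene of 29 (17.2% changed, against 26.4% of all genes), with a median of -0.54 for resistant knockout against parental cells and 0.65 for resistant against parental cells. ACACA, which makes malonyl-CoA for fatty acids, had 90.0, 85.1 and 88.4 CPM in resistant knockout libraries, against 152, 212 and 264 CPM in parental libraries (-1.25 ± 0.30, adjusted p 0.00840). The lower count was 1 without resistant knockout library 1 and 2 without resistant knockout library 2 or parental library 3, and the higher call was lost without resistant knockout library 3 or parental library 1 or 2. Of 31 hypoxia and glycolysis genes, 5 were higher and 3 lower (25.8% changed, against 26.4% of all genes). SLC2A3, a glucose transporter, had 6.93, 10.8 and 4.51 CPM in resistant knockout libraries and no parental read, at least 129.0-fold higher. VEGFA, the vascular growth factor, had 141, 166 and 80.9 CPM in resistant knockout libraries, against 1020, 1110 and 765 CPM in parental libraries (-2.90 ± 0.50, adjusted p 0.00126). The hypoxia counts were 3 higher without parental library 2, and 1 lower without that library or resistant knockout library 2.

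Transporters decide how much cisplatin enters and leaves a cell. Of 22 tested transporters and copper-handling genes, 4 were higher and 3 lower (31.8% changed, against 26.4% of all genes, median 0.04), against 8 higher and 3 lower for resistant over parental cells. SLC22A2, the organic cation transporter OCT2 that carries cisplatin into cells, had 16.3, 14.7 and 11.9 CPM in resistant knockout libraries and 3 reads over the parental libraries, a ratio of 248.6 (84.8 to 1210). SLC47A1, the extruder MATE1, had 7.47, 6.42 and 4.01 CPM in resistant knockout libraries, 30.1, 16.1 and 18.7 CPM in resistant libraries, and 0.0597, 1.22 and 1.14 CPM in parental libraries (2.88 ± 0.64, edgeR adjusted p 0.00556). LRRC8D, a subunit of volume-regulated channels that pass cisplatin, had 13.4, 17.3 and 14.3 CPM in resistant knockout libraries, against 34.4, 50.1 and 69.6 CPM in parental libraries (-1.78 ± 0.40, adjusted p 0.00636). Resistant library 1 stood high for it at 35.7 CPM, with 16.9 and 13.7 CPM in the other two. ATOX1, a copper chaperone, had 40.9, 30.3 and 74.7 CPM in resistant knockout libraries, against 17.6, 9.99 and 13.6 CPM in parental libraries (1.83 ± 0.38).

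DNA repair genes changed at or below the overall share of 26.4%. Nucleotide excision repair, which removes platinum adducts, had 2 higher and 3 lower of 30 (16.7%), homologous recombination and the Fanconi pathway 1 higher and 4 lower of 37 (13.5%), and mismatch repair with translesion synthesis 1 higher and 2 lower of 15 (20%). GTF2H3, a subunit of the repair helicase complex TFIIH, had 22.7, 19.4 and 25.6 CPM in resistant knockout libraries, against 87.0, 124 and 55.7 CPM in parental libraries (-1.97 ± 0.38, edgeR adjusted p 0.00267). RBBP8, which starts the trimming of broken ends, had 14.6, 17.3 and 34.3 CPM in resistant knockout libraries, against 74.6, 205 and 179 CPM in parental libraries (-2.79 ± 0.53, adjusted p 0.00247). BRCA2, a mediator of recombination, had 8.51, 13.9 and 15.3 CPM in resistant knockout libraries, against 36.8, 35.2 and 56.0 CPM in parental libraries (-1.76 ± 0.39, adjusted p 0.00547). ATR, the replication stress kinase, had 25.9, 23.6 and 21.4 CPM in resistant knockout libraries, against 47.2, 46.9 and 52.9 CPM in parental libraries (-1.05 ± 0.22). Each of these 4 calls held without any one library. Those of ERCC1, the excision nuclease subunit, and FANCF, both higher in resistant knockout cells (adjusted p 0.0395 and 0.0458), were lost without each of the 6 libraries, with adjusted p of 0.0550 to 0.150 for ERCC1 and 0.0557 to 0.161 for FANCF. Without resistant knockout library 2 or parental library 2 the lower count of excision repair genes was 1. Without parental library 3 or resistant knockout library 1 its higher count was 0, and without any of the other 4 it was 1. The higher mismatch repair call was lost without any library other than resistant knockout library 3, which gave 2, and the lower count was 1 without any library other than parental library 3.

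Of 32 apoptosis regulators, 2 were higher and 6 lower (25.0% changed, against 26.4% of all genes). TNFRSF10B, the death receptor DR5, had 105, 126 and 92.6 CPM in resistant knockout libraries, against 278, 312 and 269 CPM in parental libraries (-1.40 ± 0.32, edgeR adjusted p 0.00655). The lower apoptosis count was 1 without resistant knockout library 2 and 3 without parental library 1 or 2. The higher apoptosis count was 1 without any of those 3 libraries.

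Of 17 tested aldehyde dehydrogenases and stem-like markers, 6 were higher and 3 lower (52.9% changed, against 26.4% of all genes). Beside ALDH1A1, the related ALDH1A3 had 14.7, 11.6 and 13.5 CPM in resistant knockout libraries, against 0.717, 0.833 and 0.518 CPM in parental libraries (log2 fold change 4.26 ± 0.44, edgeR adjusted p 3.69e-05). ALDH3A1 had no read in resistant knockout libraries, against 0.956, 8.07 and 4.81 CPM in parental libraries, at least 82.55-fold lower. LGR5, an R-spondin receptor of stem cells, had 7.42, 8.75 and 1.91 CPM in resistant knockout libraries and 1 read over the parental libraries (ratio 321.7, 57.3 to 12700). The pluripotency factor KLF4 was lower, with 6.83, 4.6 and 6.24 CPM in resistant knockout libraries and 74.7, 163 and 46.8 CPM in parental libraries (-4.01 ± 0.68). Of 23 cancer-testis and germline genes, 7 passed the filter on low counts and 5 were called higher. A gene at 0 in one group passes that filter only through the other, as 4 of these 7 did, so nothing is read from this count. MAGEH1, a MAGE family gene that is not restricted to the germline, had 13.8, 21.4 and 6.36 CPM in resistant knockout libraries. It had no parental read and was at least 243.2-fold higher. The X-linked antigens MAGEA12, at 3.66, 2.05 and 2.96 CPM, and MAGEA3, at 1.48, 1.66 and 2.53 CPM in resistant knockout libraries, had no parental read either, and MAGEA family members share sequence, so their reads could be split.

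Demethylases and methyltransferases listed for lysine 4 of histone H3, where KDM5 enzymes act, were counted too. Members differ in the methylation state they act on, and some act on other residues or proteins as well. Of 21 tested, 2 were higher and 5 lower, the targeted KDM5A among them (33.3% changed, against 26.4% of all genes). The mark itself was not measured. SETD7, a lysine methyltransferase, had 33.8, 22.6 and 30.2 CPM in resistant knockout libraries, against 61.7, 96.7 and 85.2 CPM in parental libraries (-1.49 ± 0.28, edgeR adjusted p 0.00203). KDM2B, a CpG island-binding demethylase, had 29.4, 28.9 and 39.6 CPM in resistant knockout libraries, against 51.4, 90.2 and 77.4 CPM in parental libraries (-1.16 ± 0.27, adjusted p 0.00685). In resistant cells without the knockout, the log2 fold changes over parental cells were -1.53 for SETD7 and -1.27 for KDM2B, whereas that of KDM5A was 0.01. The 2 higher calls fell to 0 without resistant knockout library 1 or 3 or parental library 2 and to 1 without any of the other 3.

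Of 46 nuclear genes of oxidative phosphorylation, 13 were higher (28.3%, against 14.8% of all genes, median 0.43), and 20 had an interval within 2-fold. ATP5MC3, a subunit of the ATP synthase rotor, had 347, 292 and 324 CPM in resistant knockout libraries, against 132, 121 and 118 CPM in parental libraries (1.38 ± 0.31, edgeR adjusted p 0.00598). NDUFV2, of complex I, had 134, 113 and 162 CPM in resistant knockout libraries, against 54.0, 66.6 and 58.7 CPM in parental libraries (1.19 ± 0.30, adjusted p 0.0107). The count of 13 depended on single libraries: it was 2 without parental library 2, 6 without resistant knockout library 1, and 8 without resistant knockout library 2, 3 or parental library 3. Among 56 cytosolic ribosomal protein genes 1 was lower, RPLP0 (1.79% changed, against 26.4% of all genes), and 18 had an interval within 2-fold. RPLP0 had 1050, 973 and 2020 CPM in resistant knockout libraries and 3070, 3390 and 2160 CPM in parental libraries (adjusted p 0.0364). Its call was lost without resistant knockout library 1 (0.137) or 2 (0.140) or parental library 1 (0.0885) or 2 (0.128), and the count of lower genes was 4 without resistant knockout library 3 and 3 without parental library 3. Of 45 genes of DNA replication and mitosis 1 was lower (2.22% changed, against 26.4% of all genes). This was CDC25B, the phosphatase that activates mitotic kinases. It had 185, 160 and 253 CPM in resistant knockout libraries, against 576, 972 and 1010 CPM in parental libraries (-2.10 ± 0.32, adjusted p 0.000578). None of the 45 had an interval within 2-fold, so the lack of other calls does not show equal levels. Without resistant knockout library 3 there were 2 lower genes.

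Among 25 immediate early and heat shock genes, 4 were higher and 3 lower (28% changed, against 26.4% of all genes). EGR1, an early growth response factor, had 51.6, 57.5 and 267 CPM in resistant knockout libraries, against 3.23, 4.61 and 6.57 CPM in parental libraries (4.70 ± 0.83, edgeR adjusted p 0.00155). DUSP6, the phosphatase of ERK, had 0.940, 0.609 and 1.24 CPM in resistant knockout libraries, against 4.36, 10.8 and 5.38 CPM in parental libraries (-2.87 ± 0.60, adjusted p 0.00389). For EGR1, as for CCN2, resistant knockout library 3 was the highest of its group. The lower count was 1 without parental library 2 and 5 without parental library 3.

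**Figure D4:**
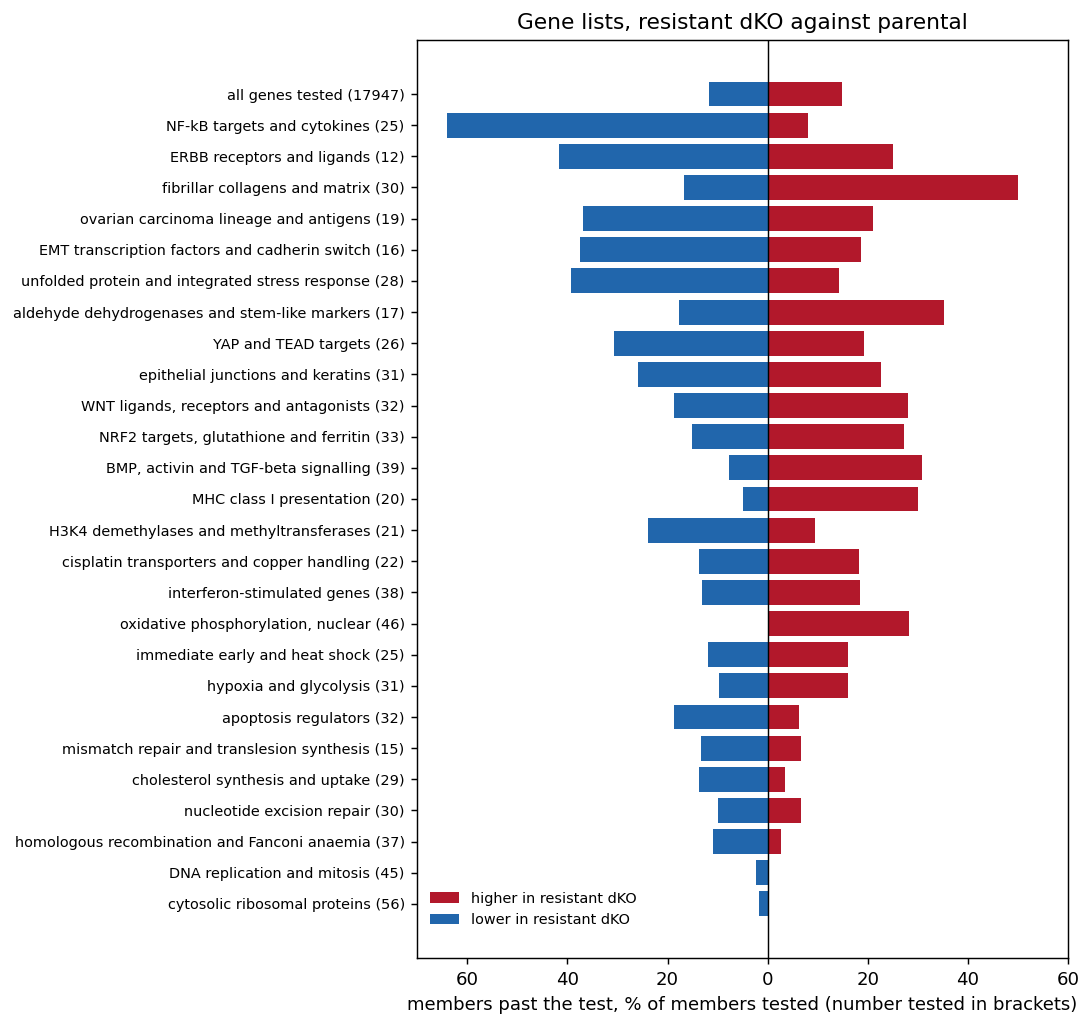
Percentage of the tested members of each gene list with at least 10 tested genes that were higher (right of 0) or lower (left of 0) in resistant knockout cells than in parental cells. The top bar gives the shares over all 17947 genes, 14.8% and 11.6%. Of the lists drawn, NF-kB targets and cytokines reach farthest on the lower side (16 of 25) and matrix genes on the higher side (15 of 30).

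Medians differed between chromosomes. On GENCODE release 29 coordinates (GRCh38), the median log2 fold change over 186 tested genes of chromosome 21 was 0.63, with 50 higher and 6 lower genes. Chromosome 2 had a median of 0.43 (273 higher and 73 lower of 1150), chromosome 5 one of 0.37 (185 and 41 of 828) and chromosome 22 one of 0.37 (94 and 20 of 449). Medians below 0 were found for chromosome 13, at -0.55 (21 higher and 79 lower of 308), chromosome 4, at -0.54 (44 and 175 of 613), and chromosome 7, at -0.52 (67 and 178 of 840). Relative to the mean of the parental libraries, the median difference on chromosome 21 was 0.6, 0.608 and 0.538 in resistant knockout libraries, while each parental library differed from the mean of the other two by -0.016, 0.072 and -0.004. On chromosome 13 it was -0.472, -0.505 and -0.571 in resistant knockout libraries, against -0.083, 0.069 and 0.004 in parental libraries. On chromosome 4 the values were -0.527, -0.499 and -0.565 in resistant knockout libraries and -0.218, 0.124 and 0.095 in parental libraries. No resistant knockout library overlapped a parental one on these 3 chromosomes. They were picked for their medians in the same libraries, so this separation follows in part from the choice and adds no support.

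For resistant cells without the knockout, the medians over parental cells were 0.47 on chromosome 21, 0.28 on chromosome 2, -0.71 on chromosome 13, -0.59 on chromosome 4 and -0.58 on chromosome 7. In windows of 10 Mb with at least 20 tested genes, 27 of 267 had a median above 0.5 and 37 one below -0.5. The window with the highest median was on chromosome 2, 210000001 to 220000000, at 1.07, with 34 higher and 1 lower of 71 genes. The lowest was on chromosome 7, 110000001 to 120000000, at -1.27, with 1 higher and 10 lower of 20 genes. In resistant cells the same windows had medians of 1.07 and -1.29. On chromosome 5, the window from 140000001 to 150000000 had 38 higher and 3 lower of 116 genes (median 0.87, and 1.23 in resistant cells). DNA copy number was not measured, and its part in these shifts was not tested.

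**Figure D5:**
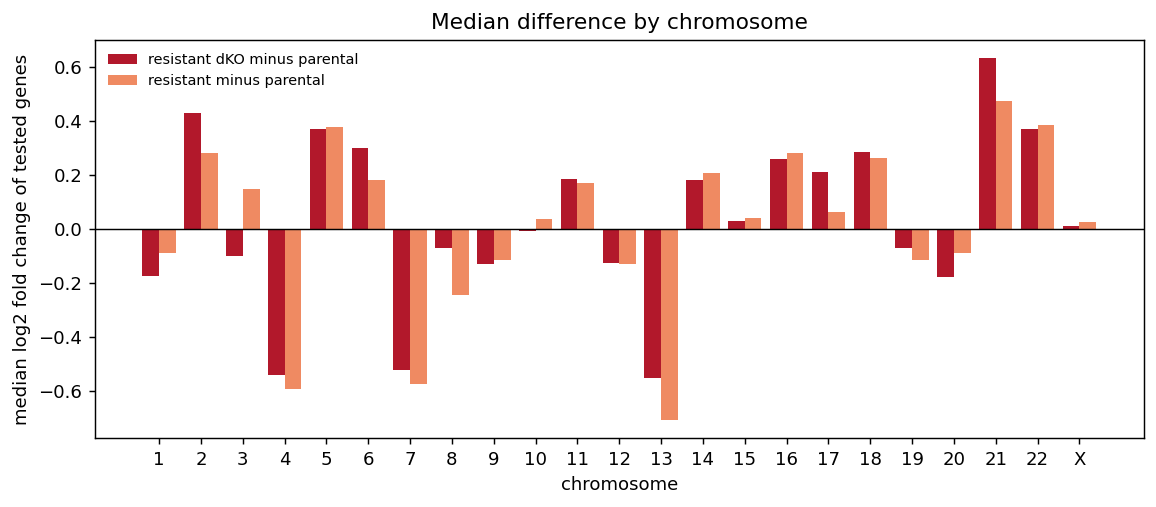
Median log2 fold change of tested genes by chromosome for resistant knockout against parental cells and for resistant against parental cells. Chromosomes 21 (0.63) and 2 (0.43) lie highest for resistant knockout against parental cells, and chromosomes 13 (-0.55), 4 (-0.54) and 7 (-0.52) lowest.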

How the data were processed

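Poly(A) RNA was sequenced with a directional kit, per the labels' protocols. The authors deposited raw read counts per gene for all 12 libraries, in copies with equal values. Per the submitters' processing notes, reads were trimmed with Trim Galore 0.6.10, aligned to GRCh38 with STAR 2.7.10a and counted with featureCounts 2.0.1. Which annotation and strand setting were used is not given in the sources used here. Reads of overlapping or antisense genes may therefore be shared, and near-identical copies may split reads.

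From the counts, edgeR 4.0.16 (R 4.3.3) was run on all 12 libraries with TMM scaling, filterByExpr (17947 genes kept) and a robust quasi-likelihood fit, whose SE is the log2 fold change over the square root of F. P-values were adjusted by Benjamini-Hochberg over all genes tested, with a threshold of 0.05. Bounds and ratios for genes with 0 to 3 reads in a group used a floor of 3 counts over the group's libraries or an exact 95% counting interval. Single values were tested by two-sided exact permutation. Gene coordinates and types came from GENCODE release 29. Methods were tested on simulated data. Alternatives were median-of-ratios scaling, library size alone, other filters, DESeq2 1.42.0, limma-voom 3.58.1, the 6 libraries alone, a replicate block and leaving out each library.

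Genes named were the 12 largest increases and 12 largest decreases among protein-coding genes past the test whose libraries did not overlap and whose higher group reached 5 CPM, up to 5 called members of each list with the largest change, the 8 largest differences between resistant knockout and resistant cells, the KDM5 genes and features of the line. Some genes that meet this rule, and 1 list, are not reported here. The members and lists were chosen with earlier results of these data known. Within each group no pair of libraries agreed within sampling noise, so each was counted once.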

Additional observations from a re-analysis of the deposited data

How the results depend on the processing

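Leaving out single libraries gave 3140 to 4780 changed genes and 1221 to 2071 lower genes, against 4744 and 2088. Using replicate number as a block gave 5252 changed genes over all 12 libraries and 3164 over the 6 libraries alone, the second with 1223 lower genes. Same-numbered resistant knockout and parental libraries did not deviate together (r = 0.08, -0.42 and -0.18). Differently numbered ones gave r of -0.17 to 0.36. Whether libraries with the same number share a batch was not tested. DESeq2 called 5738 genes, limma-voom 4729 and median-of-ratios scaling 4691. The filter of 1 count over all libraries called 5716 of 41281 genes, and that of 1 CPM in 3 libraries 4497 of 16318. Genes within 2-fold fell to 1868 without parental library 3 and resistant knockout library 3 together, an alternative chosen after seeing the data. This count was not run for DESeq2, limma-voom or the filter of 1 count.

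Fits without single libraries gave a difference in distance of -0.0557 to 0.0152, the upper without resistant library 1. They gave a KDM5B level difference of -0.496 to 0.305 on the log2 scale, above 0 without resistant knockout library 3 (0.305) or parental library 2 (0.135). The fitted log2 fold change ran from -0.47 to 0.28 for KDM5B, with 0.28 and 0.27 without those libraries, and was 0.13 with library size alone and 0.073 without both libraries numbered 3. For KDM5C it ran from -0.039 (without parental library 3) to 0.22 and was -0.03 without parental library 1 and -0.013 without both libraries numbered 3. LINC02323 ran from -0.23 (without parental library 3) to 0.43, with -0.11 without resistant knockout library 1 and -0.22 without both libraries numbered 3. RSAD2 ran from -7.65 to 4.55, the upper without parental library 1. The cause was not tested. Of 152 called genes that are named by the rule, 42 lost the call in at least 1 fit without a library. Depth limits statements on genes with few reads, and 55.3% of genes were neither called nor shown to lie within 2-fold.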
